A study of Mus musculus with 8 samples.

Results

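The 10 genes described here encode receptors and SMAD proteins of the bone morphogenetic protein (BMP) and TGF-beta pathways: Bmpr1a, Bmpr2, Acvr1, Tgfbr1, Tgfbr2, Tgfbr3, Smad2, Smad3, Smad4 and Smad7. They were taken by name from a table of 27179 gene identifiers, where all 10 were found, and all 10 were among the 13794 genes that passed a filter on low counts. The list was chosen by the measured levels of Bmpr1a, known to differ with subset and genotype in these libraries, so the values of Bmpr1a are given as a description and were not tested. Tests concern the other 9 genes.

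RNA-seq read counts came from 8 libraries of natural killer T (NKT) cells sorted from the thymus of C57BL/6 mice, 4 Ezh2-KO and 4 WT. NKT cells carry a T cell receptor that binds lipids shown on CD1d. Ezh2 is a histone methyltransferase, the catalytic subunit of PRC2, and its H3K27 mark goes with gene repression. The subsets were CD44- NK1.1-, CD44+ NK1.1- and CD44+ NK1.1+ cells, commonly placed in that order in thymic NKT maturation. Of the 6 groups, CD44+ NK1.1- cells of each genotype were sequenced as 2 biological replicates and each of the other 4 groups as 1 library. The sources used here do not give the driver or extent of the Ezh2 deletion, nor the age and sex of the mice.

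In this pathway a ligand brings together type I and type II receptor kinases, the type II receptor activates the type I receptor, and the type I receptor phosphorylates SMAD proteins. Tgfbr1 and Tgfbr2 act through Smad2 and Smad3, whereas Bmpr1a, Acvr1 and Bmpr2 act through Smad1, Smad5 and Smad9. Both branches share Smad4, which enters the nucleus with the activated SMADs, and Smad7 is induced by the pathway and inhibits it. In mouse thymus, TGF-beta signalling in T-lineage cells is known to be needed for normal NKT cell development.

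Libraries held 20308745 to 22995090 counts, so that 3 counts, taken as the floor, corresponded to at most 0.148 CPM (counts-per-million, the count scaled to library size). Ezh2 itself had 78.4 CPM in Ezh2-KO and 108.5 CPM in WT CD44- NK1.1- cells, 83.3 and 77.9 against 113.3 and 135.8 CPM in CD44+ NK1.1- cells, and 40.4 against 57.15 CPM in CD44+ NK1.1+ cells. The labelled deletion thus left reads on the gene, at a level that was lower in every subset (log2 fold change -0.56 over the 3 subsets, SE 0.07, edgeR quasi-likelihood adjusted p = 0.00402). The T cell genes Cd3d, Cd3e and Cd3g and the NKT regulator Zbtb16 were read in every library, from 114.1 CPM upwards. WT CD44+ NK1.1- replicate 1 stood apart: 11 immediate early genes, which cells switch on within minutes of stimulation, summed to 2877 CPM there and to 434.2 to 836 CPM in the other 7 libraries. Within CD44+ NK1.1- cells, 27 of 11848 genes differed by over 2-fold between the Ezh2-KO replicates, and 348 of 11710 genes between the WT replicates. In bulk RNA, fewer cells of a kind and less RNA per cell cannot be told apart.

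Bmpr1a, a type I receptor for BMPs, was high in every Ezh2-KO subset and low in both WT subsets with CD44. In Ezh2-KO libraries it had 42.9 CPM in CD44- NK1.1- cells, 43.4 and 39.7 CPM in CD44+ NK1.1- cells and 39.8 CPM in CD44+ NK1.1+ cells. In WT libraries it had 22.1 CPM in CD44- NK1.1- cells, 2.75 and 2.41 CPM in CD44+ NK1.1- cells and 4.73 CPM in CD44+ NK1.1+ cells. All 4 Ezh2-KO libraries lay above all 4 WT libraries, and among the WT libraries only the CD44- NK1.1- one was above 5 CPM.

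The counts behind these levels were 910 and 883 reads in the Ezh2-KO CD44+ NK1.1- libraries, against 61 and 56 reads in the WT ones. The mean was 41.6 ± 2.60 CPM in Ezh2-KO and 2.58 ± 0.241 CPM in WT CD44+ NK1.1- cells (SD, n = 2 each), a ratio of 16.1. The ratio of Ezh2-KO to WT was 1.94 in CD44- NK1.1- cells and 8.43 in CD44+ NK1.1+ cells, with 1 library a side. Bmpr1a therefore differed least between genotypes in the subset placed earliest. Exact Poisson 95% intervals, which cover counting error only, ran from 40.2 to 45.8 CPM for the Ezh2-KO and from 20.2 to 24.2 CPM for the WT CD44- NK1.1- library. In CD44+ NK1.1+ cells they ran from 37.1 to 42.7 CPM in Ezh2-KO and from 3.84 to 5.76 CPM in WT.

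Between subsets, Bmpr1a followed different courses in the 2 genotypes. The log2 difference of CD44+ NK1.1- over CD44- NK1.1- cells was -0.05 in Ezh2-KO and -3.10 in WT. From CD44+ NK1.1- to CD44+ NK1.1+ cells it was -0.06 in Ezh2-KO and 0.87 in WT. The Ezh2-KO libraries thus spanned 39.7 to 43.4 CPM and the WT libraries 2.41 to 22.1 CPM.

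Bmpr2 encodes the type II receptor that pairs with Bmpr1a for BMP ligands, and it was the other member of the list that was higher in Ezh2-KO cells. It had 29.2 CPM in CD44- NK1.1-, 26.2 and 24.2 CPM in CD44+ NK1.1- and 27.9 CPM in CD44+ NK1.1+ Ezh2-KO libraries. WT cells had 26.9 CPM in the CD44- NK1.1-, 9.92 and 11.9 CPM in the CD44+ NK1.1- and 12.9 CPM in the CD44+ NK1.1+ library. In both CD44+ subsets the Ezh2-KO libraries lay above the WT ones, and in CD44- NK1.1- cells the 2 libraries were close.

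In CD44+ NK1.1- cells Bmpr2 averaged 25.2 ± 1.43 CPM in Ezh2-KO and 10.9 ± 1.38 CPM in WT (SD, n = 2 each), a log2 fold change of 1.21 (SE 0.14, edgeR adjusted p = 0.00908). It was the only one of the 9 tested members called in this comparison, where 4.94% of all tested genes were called (682 genes, adjusted p under 0.05), 3.78% higher and 1.16% lower. Over the 3 subsets together its log2 fold change was 0.91 (SE 0.19, adjusted p = 0.0240), again 1 member of 9, beside 11.3% of all genes (6.43% higher and 4.89% lower). The difference within CD44+ NK1.1- cells lost its call without Ezh2-KO replicate 1 (1.15, adjusted p = 0.122) or replicate 2 (1.27, adjusted p = 0.0868). That over the 3 subsets lost it when any one of 6 libraries was left out, the 4 CD44+ NK1.1- and the 2 CD44+ NK1.1+ ones, with values of 0.77 to 0.88 and adjusted p of 0.0655 to 0.0911.

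Bmpr2 was lower in CD44+ NK1.1- than in CD44- NK1.1- cells as the mean over both genotypes (log2 difference -0.76, SE 0.12, adjusted p = 0.0310), the only tested member called there beside 2.66% of all genes (1.59% higher and 1.07% lower). Within Ezh2-KO cells the difference was -0.21 (SE 0.17, adjusted p = 0.943) and 0.493% of genes were called. Within WT cells, in the model of all 8 libraries, it was -1.30 (SE 0.17, edgeR adjusted p = 0.0228) and 1.92% were called. Fitted to the 4 WT libraries alone, it was -1.31 and not called. The genotype effect on Bmpr2 in CD44- NK1.1- cells minus that in CD44+ NK1.1- cells was -1.09 (SE 0.24, unadjusted p = 0.00373), and its adjusted p of 0.436 did not pass. Without WT CD44+ NK1.1- replicate 1 it was -0.97 (adjusted p = 3.35e-07) and without replicate 2 -1.23 (adjusted p = 1.54e-11), where the close Ezh2-KO pair alone sets the spread. Without WT CD44- NK1.1- replicate 1 no WT subset difference can be formed, and the value of -0.22 is that of Ezh2-KO cells alone. The subset difference as the mean over both genotypes lost its call without Ezh2-KO CD44+ NK1.1- replicate 1 or replicate 2. With subset and genotype as added effects it was -0.79 (adjusted p = 0.131).

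The summed level of a list of 3 gamma-delta T cell markers shared part of the pattern of Bmpr2. The 3 genes of that list, Trdc, Trgc1 and Sox13, all detected in every library, summed to 799.5 CPM in CD44- NK1.1-, 571.5 and 556.4 CPM in CD44+ NK1.1- and 558.1 CPM in CD44+ NK1.1+ Ezh2-KO libraries. In WT libraries they summed to 773.5 CPM in CD44- NK1.1-, 295.2 and 308.4 CPM in CD44+ NK1.1- and 312.9 CPM in CD44+ NK1.1+ cells. As for Bmpr2, the 3 WT CD44+ libraries were the low ones. Among Ezh2-KO libraries the sum was highest in CD44- NK1.1- cells, whereas Bmpr2 spanned only 24.2 to 29.2 CPM. Singly, Trdc ran from 6.41 to 34.65 CPM over the 8 libraries, Trgc1 from 223 to 498 CPM and Sox13 from 20.3 to 303.6 CPM. The sum thus rested little on Trdc, and whether each gene alone shared the pattern was not examined. The 3 natural killer or innate lymphoid cell genes summed to 4.22, 35.0, 33.8 and 129.4 CPM in the Ezh2-KO libraries and 0.719, 2.80, 1.85 and 11.2 CPM in the WT libraries, in the same order of subsets, with Ncr1 at 0 counts in 4 of the 8. The 3 regulatory T cell genes summed to 95.4 to 189.8 CPM in Ezh2-KO and 75.9 to 110.5 CPM in WT libraries, with at most 15 counts of Foxp3. The part of such cells in the Bmpr1a and Bmpr2 values was not tested. A list of 4 stromal cell genes summed to 4.43 to 4.63 CPM in the 4 Ezh2-KO libraries and 2.45 to 3.07 CPM in the 4 WT libraries, with Col3a1 and Pdgfra at 0 counts in all 8. The 5 thymic epithelial cell genes summed to 2.79 to 5.13 CPM in Ezh2-KO and 2.15 to 5.79 CPM in WT libraries, and Foxn1 and Krt5 never exceeded 2 counts. Lists of B cell, myeloid and dendritic cell genes each summed to under 10 CPM in every library.

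**Figure D1:**
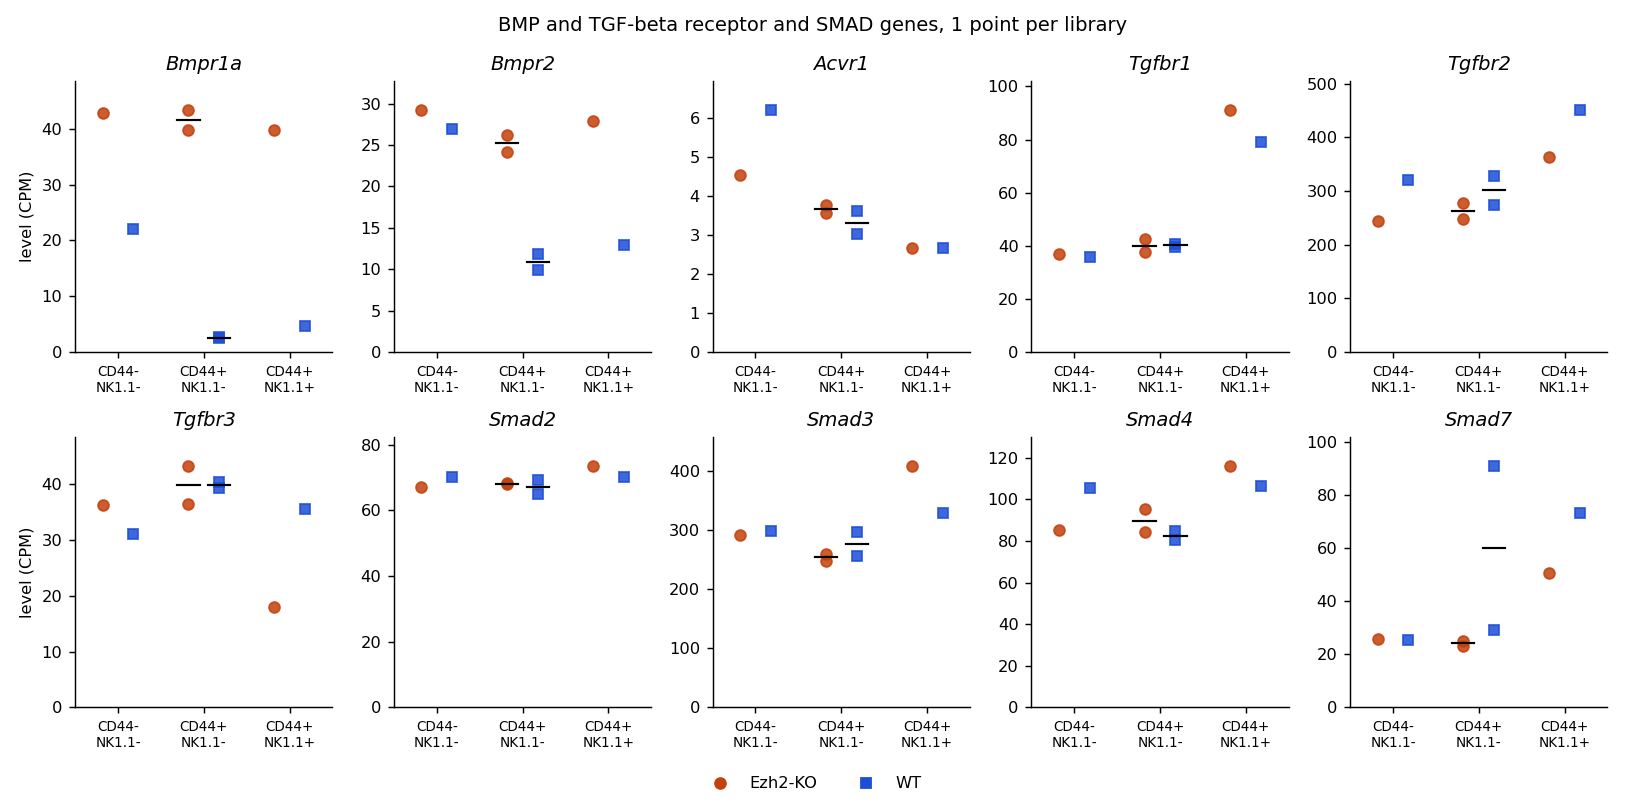
Level of each of the 10 genes in CPM (each vertical axis starts at 0), by subset from CD44- NK1.1- to CD44+ NK1.1+, with Ezh2-KO libraries as circles to the left of WT libraries as squares. Each point is 1 library and a black line is the mean of 2 replicates. Bmpr1a and Bmpr2 are low in WT CD44+ libraries only, Tgfbr1 is high in both CD44+ NK1.1+ libraries, and the 2 WT CD44+ NK1.1- values of Smad7 lie far apart at 91.2 and 29.0 CPM.

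**Figure D2:**
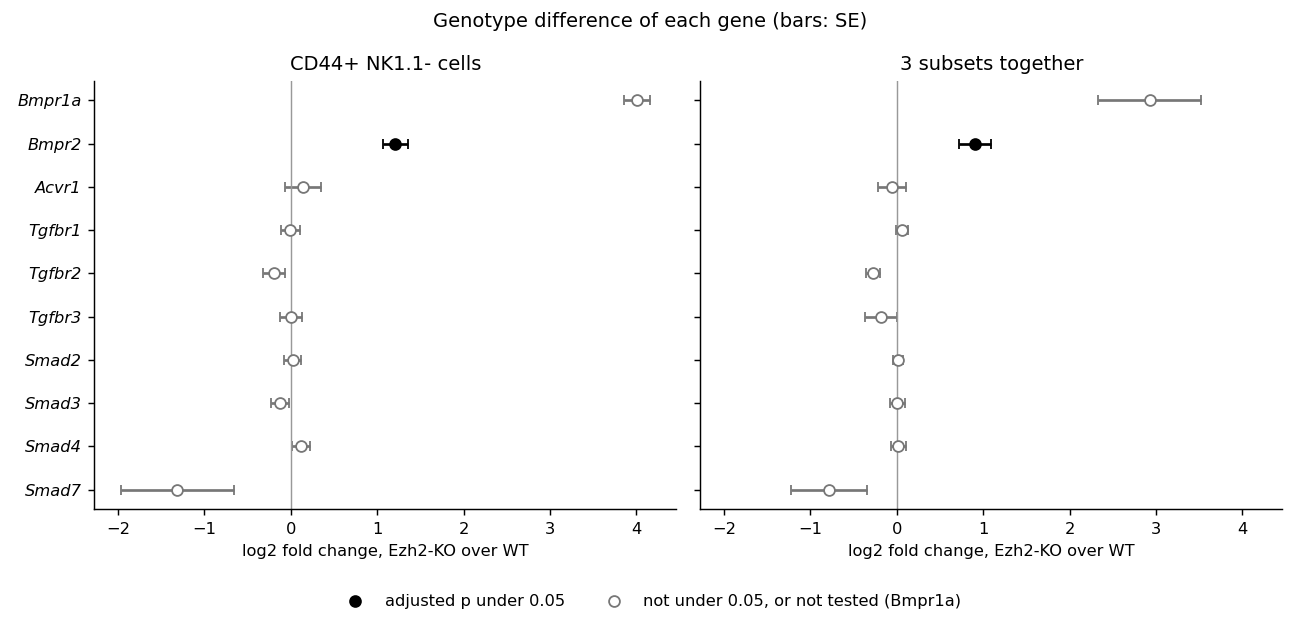
Log2 fold change of Ezh2-KO over WT for each gene, in CD44+ NK1.1- cells on the left and over the 3 subsets on the right. Bars are 1 SE, derived from the F statistic of the fitted model. Filled points had an adjusted p under 0.05, which Bmpr2 alone did at 1.21 and 0.91. Bmpr1a is drawn open because it was not tested, and its bar is not to be read as a test.

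The 8-library pattern of Bmpr2 was also among those most like that of Bmpr1a. Over 8926 other genes with a mean of at least 10 CPM, the 5 highest Pearson correlations of log2(CPM + 1) with Bmpr1a were those of Rnf43 (0.984), Trgv5 (0.974), Isoc2b (0.971), Pik3cb (0.971) and Bmpr2 (0.970), each over the same 8 libraries. Rnf43 had 143.2, 103 and 98.2 CPM in Ezh2-KO and 75.7, 18 and 17.8 CPM in WT cells, as means of CD44- NK1.1-, CD44+ NK1.1- and CD44+ NK1.1+ libraries. Isoc2b changed far less, at 21.0, 20.4 and 19.5 CPM in Ezh2-KO and 18.2, 15.1 and 16.6 CPM in WT cells in the same order. A high coefficient thus does not mean a large change. The other members ranged from 0.295 for Smad2 to -0.602 for Smad7, and Acvr1 fell under the level limit. These coefficients describe 8 points that share genotype and subset.

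The 250 bases before the RefSeq start are shown for both BMP receptor genes that differed between genotypes. Those of Tgfbr1, a receptor gene for which no such difference was called, are shown beside them. All 3 stretches are rich in CpG (build GRCm38.p6, the RefSeq name of mm10, with CpG pairs in capitals). Bmpr1a lies at chr14:34411061-34503336 and its stretch at chr14:34502547-34502796 on the minus strand and within the annotated gene span. Bmpr2 lies at chr1:59764279-59878081 and its stretch at chr1:59764029-59764278 on the plus strand. Tgfbr1 lies at chr4:47353222-47414926 and its stretch at chr4:47352972-47353221 on the plus strand. Read 5′ to 3′ on the strand of the gene, they are as follows.
Bmpr1a: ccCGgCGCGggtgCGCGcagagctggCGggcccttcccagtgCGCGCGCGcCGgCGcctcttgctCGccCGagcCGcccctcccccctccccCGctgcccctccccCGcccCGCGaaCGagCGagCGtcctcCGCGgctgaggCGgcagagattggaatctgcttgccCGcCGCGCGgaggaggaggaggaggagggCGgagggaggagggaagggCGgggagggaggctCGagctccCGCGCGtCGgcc
Bmpr2: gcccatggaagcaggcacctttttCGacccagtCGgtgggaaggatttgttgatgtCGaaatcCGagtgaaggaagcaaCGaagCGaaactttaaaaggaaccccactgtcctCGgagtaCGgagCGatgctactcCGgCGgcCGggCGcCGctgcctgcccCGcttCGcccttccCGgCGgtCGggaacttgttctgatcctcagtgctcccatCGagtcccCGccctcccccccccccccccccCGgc
Tgfbr1: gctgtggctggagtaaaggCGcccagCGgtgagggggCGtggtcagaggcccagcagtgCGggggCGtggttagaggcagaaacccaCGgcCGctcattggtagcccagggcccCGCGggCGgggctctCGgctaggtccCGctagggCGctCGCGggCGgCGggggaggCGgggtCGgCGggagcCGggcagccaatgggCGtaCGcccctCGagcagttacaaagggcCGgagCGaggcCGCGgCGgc

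CpG pairs numbered 36 in the Bmpr1a stretch, 22 in that of Bmpr2 and 29 in that of Tgfbr1, against a median of 6 over 32851 RefSeq stretches of the same length. These counts exceeded those of 97.4%, 85.2% and 93.2% of all such stretches, in that order. The stretch of Acvr1, with 46 CpG, exceeded 99.7%. The core of the SMAD-binding element, CAGAC on either strand, was absent from the 3 printed stretches and is present in 42.2% of all stretches. The palindrome GGCGCC was present once in each of the 3 and is present in 9.59% of all. It was absent from the stretches of Acvr1, Smad3 and Tgfbr2 and from that before a second Tgfbr1 start. The shares over all stretches were not matched for content of C and G. The 3 were not the members highest in CpG, since Acvr1 had more and the stretch of Smad3 had 22, as many as that of Bmpr2. Of the stretches with fewer, that of Tgfbr2 had 12 CpG, more than 66.5% of all stretches. The one before the second Tgfbr1 start had 3, more than 29% of all, and each of these 2 had 1 CAGAC. RefSeq entries were matched for 6 of the 10 genes, and which start these cells use was not analysed here.

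Acvr1, a type I receptor of BMPs and activins, had the lowest level per length of the 10 genes in 5 of the 6 groups. In Ezh2-KO libraries it had 4.54 CPM in CD44- NK1.1-, 3.77 and 3.56 CPM in CD44+ NK1.1- and 2.67 CPM in CD44+ NK1.1+ cells. In WT libraries it had 6.21 CPM in CD44- NK1.1-, 3.02 and 3.61 CPM in CD44+ NK1.1- and 2.65 CPM in CD44+ NK1.1+ cells. The genotypes overlapped in CD44+ NK1.1- cells, and in both genotypes the CD44+ NK1.1+ library was the lowest. The difference of CD44+ NK1.1+ over CD44- NK1.1- cells was -0.995 on the log2 scale (SE 0.20, edgeR adjusted p = 0.0148), but the DESeq2 Wald test gave an adjusted p of 0.137. The call was also lost without either Ezh2-KO CD44+ NK1.1- replicate. Without the WT CD44+ NK1.1+ or the WT CD44- NK1.1- library only the Ezh2-KO difference remains, at -0.77 each time and not called.

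Tgfbr1, the type I receptor of TGF-beta, rose in CD44+ NK1.1+ cells in both genotypes. It had 36.7 CPM in CD44- NK1.1-, 42.4 and 37.6 CPM in CD44+ NK1.1- and 91.1 CPM in CD44+ NK1.1+ Ezh2-KO libraries. WT cells had 35.9 CPM in CD44- NK1.1-, 40.5 and 39.7 CPM in CD44+ NK1.1- and 79.1 CPM in CD44+ NK1.1+ cells. Both CD44+ NK1.1+ libraries lay above the 6 others, and the genotypes overlapped in CD44+ NK1.1- cells. The log2 difference of CD44+ NK1.1+ over CD44+ NK1.1- cells was 1.08 (SE 0.09, adjusted p = 0.00101), with 1.19 in Ezh2-KO (adjusted p = 0.00449) and 0.98 in WT cells (adjusted p = 0.0119). Fitted to the 4 WT libraries alone, it had an adjusted p of 0.0647. Over CD44- NK1.1- cells the difference was 1.22 (SE 0.11, adjusted p = 0.000863), and it was called under every alternative tried. Between genotypes in CD44+ NK1.1- cells Tgfbr1 differed by -0.00 (SE 0.11, adjusted p = 0.989).

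Tgfbr2, the type II receptor that binds TGF-beta first, also had its highest level in CD44+ NK1.1+ cells. It had 243 CPM in CD44- NK1.1-, 277.9 and 247.7 CPM in CD44+ NK1.1- and 363.2 CPM in CD44+ NK1.1+ Ezh2-KO libraries. In WT libraries there were 319.5 CPM in CD44- NK1.1-, 328 and 273.8 CPM in CD44+ NK1.1- and 450.7 CPM in CD44+ NK1.1+ cells. The Ezh2-KO library was the lower one in both single-library subsets, and the genotypes overlapped in CD44+ NK1.1- cells. In CD44+ NK1.1- cells the Ezh2-KO to WT difference was -0.195 (SE 0.12, adjusted p = 0.434). Over the 3 subsets it was -0.27 (SE 0.08, edgeR adjusted p = 0.0612), which did not pass, while DESeq2 gave an adjusted p of 0.0174. Without WT CD44+ NK1.1- replicate 1 it was -0.24 (edgeR adjusted p = 0.0487) and without replicate 2 -0.34 (adjusted p = 0.0284). CD44+ NK1.1+ cells exceeded CD44+ NK1.1- cells by 0.52 (SE 0.11, adjusted p = 0.0138) and CD44- NK1.1- cells by 0.54 (SE 0.12, adjusted p = 0.0212). The 0.52 lost its call when either CD44+ NK1.1+ library or either Ezh2-KO CD44+ NK1.1- replicate was left out (0.47 to 0.58). The 0.54 lost it without any one library of the single-library groups or either Ezh2-KO replicate (0.50 to 0.58). In both cases, leaving out the only library of a group leaves the difference of the other genotype alone.

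Tgfbr3, or betaglycan, presents TGF-beta ligands to the signalling receptors. It had 36.3 CPM in CD44- NK1.1-, 43.3 and 36.4 CPM in CD44+ NK1.1- and 17.95 CPM in CD44+ NK1.1+ Ezh2-KO libraries. WT cells had 31.0 CPM in CD44- NK1.1-, 39.3 and 40.4 CPM in CD44+ NK1.1- and 35.5 CPM in CD44+ NK1.1+ cells. One library, Ezh2-KO CD44+ NK1.1+, was far below the 7 others, which spanned 31.0 to 43.3 CPM. The difference of CD44+ NK1.1+ over CD44+ NK1.1- cells was -0.66 as the mean over both genotypes (SE 0.11, adjusted p = 0.00888), with -1.15 in Ezh2-KO (SE 0.17, adjusted p = 0.00931) and -0.17 in WT cells (SE 0.16, adjusted p = 0.534). Without the Ezh2-KO CD44+ NK1.1+ library only the WT difference remains, at -0.16 in that fit. Without Ezh2-KO CD44+ NK1.1- replicate 1 the mean over both genotypes was -0.59 and lost its call. The call was also lost with subset and genotype as added effects (-0.60, adjusted p = 0.0777). The genotype effect in CD44+ NK1.1+ minus that in CD44+ NK1.1- cells was -0.98 (SE 0.22, unadjusted p = 0.00412, adjusted p = 0.747), so the 2 genotypes were not shown to differ in this step. Without WT CD44+ NK1.1- replicate 1 it was -0.96, with the Ezh2-KO pair alone setting the spread. Over all alternatives this difference of effects ran from -1.10 to -0.85.

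Smad3, which carries the TGF-beta signal, had 291.8 CPM in CD44- NK1.1-, 259.5 and 248.8 CPM in CD44+ NK1.1- and 409.5 CPM in CD44+ NK1.1+ Ezh2-KO libraries. In WT libraries Smad3 had 299.4 CPM in CD44- NK1.1-, 297.8 and 256.2 CPM in CD44+ NK1.1- and 329.9 CPM in CD44+ NK1.1+ cells. The CD44+ NK1.1+ library was the highest in each genotype, and the CD44+ NK1.1- replicates of the genotypes overlapped. CD44+ NK1.1+ exceeded CD44+ NK1.1- cells by 0.47 on the log2 scale (SE 0.09, adjusted p = 0.0128), with 0.69 in Ezh2-KO (adjusted p = 0.0193) and 0.25 in WT cells (adjusted p = 0.260). The call was lost without Ezh2-KO CD44+ NK1.1- replicate 1 (0.49) or 2 (0.45). Without the Ezh2-KO CD44+ NK1.1+ library only the WT difference of 0.25 remains, which was not called.

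Smad4, the partner of all activated SMADs, had 85.5 CPM in CD44- NK1.1-, 95.1 and 84.2 CPM in CD44+ NK1.1- and 116.2 CPM in CD44+ NK1.1+ Ezh2-KO libraries. In WT libraries Smad4 had 105.3 CPM in CD44- NK1.1-, 80.3 and 84.9 CPM in CD44+ NK1.1- and 106.4 CPM in CD44+ NK1.1+ cells. Both CD44+ NK1.1+ libraries lay above the 4 CD44+ NK1.1- ones. The difference between these subsets was 0.37 (SE 0.09, adjusted p = 0.0236), and it fell to 0.23 (adjusted p = 0.0822) when libraries were scaled by their total counts. It was not called without either CD44+ NK1.1+ library, which leaves the other genotype alone, or without either Ezh2-KO CD44+ NK1.1- replicate (0.33 to 0.41).

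Smad2, the other SMAD of the TGF-beta branch, had 65.1 to 73.7 CPM in all 8 libraries and was called in no comparison. Its Ezh2-KO to WT difference in CD44+ NK1.1- cells was 0.02 (SE 0.10, adjusted p = 0.928). Counting the tested members together, 4 were higher and 1 lower in CD44+ NK1.1+ than in CD44+ NK1.1- cells, beside 32.5% of all genes called (16.4% higher and 16.1% lower), with a median log2 difference of 0.37 in the 9 members and 0.00 in all genes. Against CD44- NK1.1- cells 2 were higher (Tgfbr1 and Tgfbr2) and 2 lower (Acvr1 and Bmpr2), beside 32.2% of all genes (16.0% higher and 16.2% lower). Within single genotypes, the first of these comparisons called 18.6% of all genes in Ezh2-KO and 10.3% in WT, and the second 15.4% in Ezh2-KO and 14.9% in WT. Bmpr2 differed there by -0.57 (SE 0.14, edgeR adjusted p = 0.0263), with -0.07 in Ezh2-KO (adjusted p = 0.833) and -1.06 in WT cells (adjusted p = 0.0204). Fitted to the 4 WT libraries alone, the WT difference was -1.06 and not called. The mean over both genotypes lost its call with DESeq2 (adjusted p = 0.0696) and with added effects of subset and genotype (-0.60, edgeR adjusted p = 0.110). The call was also lost without Ezh2-KO CD44+ NK1.1- replicate 1 or 2. Without the WT CD44+ NK1.1+ library (-0.07) or the WT CD44- NK1.1- library (-0.08), only the Ezh2-KO difference remains.

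**Figure D3:**
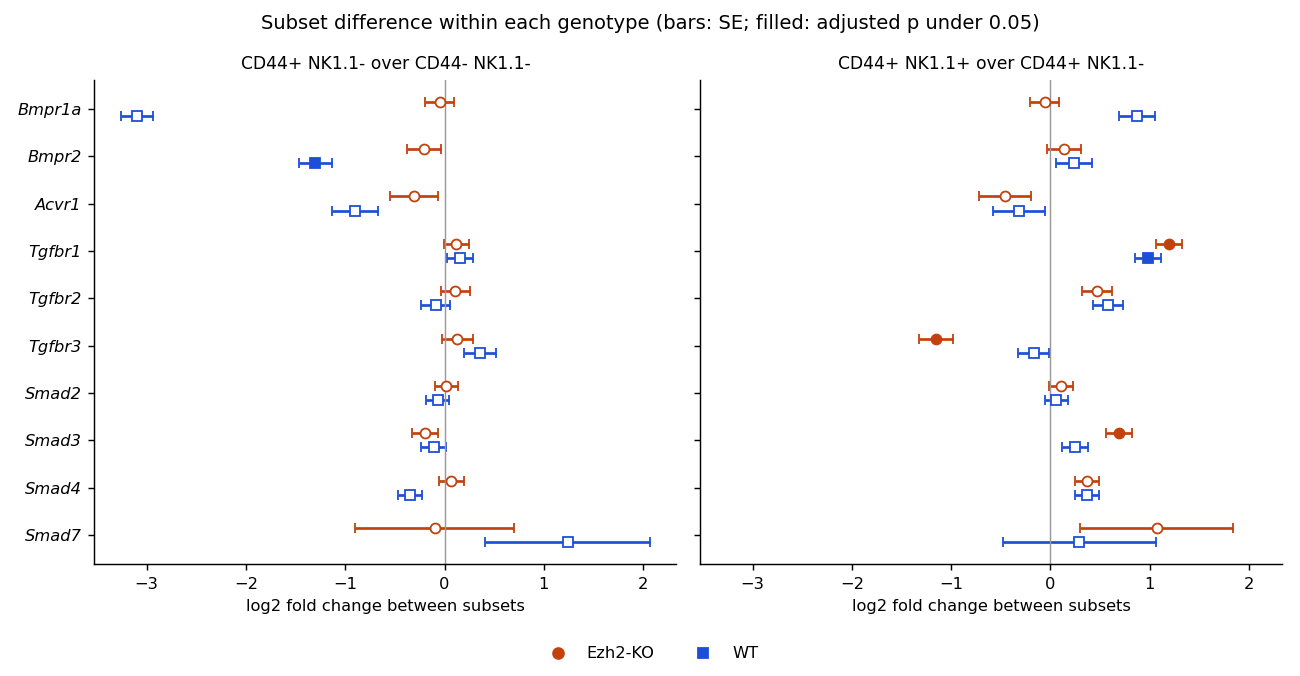
Log2 difference between subsets within each genotype, CD44+ NK1.1- over CD44- NK1.1- on the left and CD44+ NK1.1+ over CD44+ NK1.1- on the right, with Ezh2-KO as circles above WT as squares and bars of 1 SE from the model of all 8 libraries. Filled symbols had an adjusted p under 0.05. Bmpr1a, drawn open, was not tested, and its bars are not to be read as a test. Tgfbr1 is filled in both genotypes on the right at 1.19 and 0.98, and Bmpr2 in WT only on the left at -1.30. Tgfbr3 at -1.15 and Smad3 at 0.69 are filled in Ezh2-KO only on the right. Fitted to the 4 WT libraries alone, no tested member was called in either comparison.

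Smad7, the inhibitory SMAD, varied more between the WT replicates than any other member. It had 25.9 CPM in CD44- NK1.1-, 25.1 and 23.3 CPM in CD44+ NK1.1- and 50.8 CPM in CD44+ NK1.1+ Ezh2-KO libraries. WT cells had 25.5 CPM in CD44- NK1.1-, 91.2 and 29.0 CPM in CD44+ NK1.1- and 73.2 CPM in CD44+ NK1.1+ cells. Both Ezh2-KO replicates lay below both WT replicates in CD44+ NK1.1- cells, but the 2 WT replicates lay far apart. The Ezh2-KO to WT difference there was -1.31 with an SE of 0.65 (adjusted p = 0.392) and did not pass. It was -0.26 without WT replicate 1 (adjusted p = 0.0270) and -1.91 without WT replicate 2 (adjusted p = 9.08e-112), where the Ezh2-KO pair alone sets the spread. Without WT replicate 2 the difference was -0.32 for Tgfbr2 and -0.23 for Smad3, with the same pair alone setting the spread. The genotype effect on Smad7 in CD44- NK1.1- minus that in CD44+ NK1.1- cells was 1.33 (SE 1.13, adjusted p = 0.992). WT replicate 1, with the high Smad7 value, was also the library with 2877 CPM of immediate early genes and the highest sum of 6 double-positive thymocyte genes, 73.7 CPM, against 13.4 to 57.7 CPM in the 4 Ezh2-KO and 26.3 to 49.3 CPM in the 3 other WT libraries. The part of either in the Smad7 value was not tested, and the WT CD44+ NK1.1+ library had 73.2 CPM of Smad7 with 584.2 CPM of immediate early genes.

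**Figure D4:**
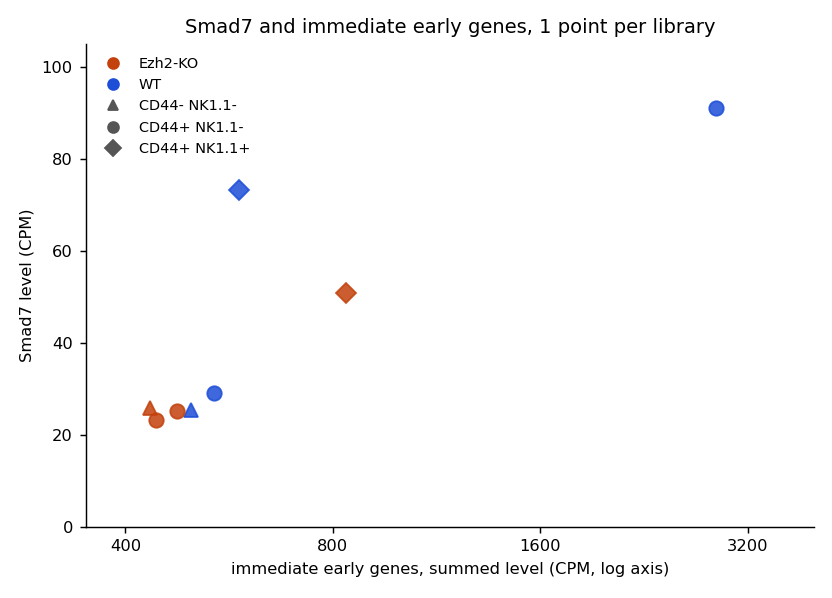
Smad7 level in CPM against the summed CPM of 11 immediate early genes on a log axis, with 1 point per library, colour for genotype and shape for subset. WT CD44+ NK1.1- replicate 1 lies alone at the upper right at 2877 and 91.2 CPM, and both CD44+ NK1.1+ libraries have more Smad7 than the other 5 at 50.8 CPM in Ezh2-KO and 73.2 CPM in WT.

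No difference of genotype effects between subsets passed for any of the 9 tested members. For CD44+ NK1.1+ against CD44+ NK1.1- cells, edgeR called 0% of all genes, with 519 genes at an unadjusted p under 0.05, 1 of them a tested member (Tgfbr3), and DESeq2 called 28 genes and no tested member. For CD44- NK1.1- against CD44+ NK1.1- cells, 0.0217% were called, with 648 genes at an unadjusted p under 0.05, again 1 a tested member (Bmpr2), and DESeq2 called 28 genes and no tested member.

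Ranked by RPKM, which divides CPM by gene length in kilobases, the order of the members was led by the same 3 genes in all 6 groups. In CD44+ NK1.1- cells Tgfbr2 had 54.9 ± 4.46 RPKM in Ezh2-KO and 62.9 ± 8.01 RPKM in WT, and Smad3 had 49.9 ± 1.49 RPKM in Ezh2-KO and 54.4 ± 5.78 RPKM in WT (SD, n = 2 each). Smad4 followed at 26.8 ± 2.31 RPKM in Ezh2-KO and 24.7 ± 0.976 RPKM in WT cells. In WT cells the replicates of Tgfbr2 and Smad3 overlapped, whereas Smad4 was below both. Smad2, Tgfbr1 and Tgfbr3 lay within 6.58 to 7.46 RPKM in both genotypes. Smad7 had 5.45 ± 0.284 RPKM in Ezh2-KO and 13.5 ± 9.89 RPKM in WT cells. Bmpr2 had 7.19 ± 0.409 RPKM in Ezh2-KO and 3.11 ± 0.394 RPKM in WT cells. Bmpr1a ranked 4 of 10 at 7.80 ± 0.487 RPKM in Ezh2-KO cells and 10 of 10 at 0.484 ± 0.0453 RPKM in WT cells, where Acvr1 had 1.11 RPKM in Ezh2-KO and 1.01 RPKM in WT cells. In CD44- NK1.1- cells Bmpr1a ranked 5 in Ezh2-KO and 9 in WT, and in CD44+ NK1.1+ cells 8 in Ezh2-KO and 9 in WT. In Ezh2-KO CD44+ NK1.1- cells the 5 genes from Bmpr1a to Tgfbr3 were all between 6.58 and 7.80 RPKM, and neighbours in that order did not differ beyond their spread.

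Among 71 other genes of the pathway in 7 lists, 51 passed the filter. In Ezh2-KO over WT CD44+ NK1.1- cells 4 were called higher and 4 lower, beside 4.94% of all genes called, and over the 3 subsets 5 higher and 6 lower, beside 11.3%. In CD44+ NK1.1- over CD44- NK1.1- cells 2 were higher and 2 lower, beside 2.66% of all genes. In CD44+ NK1.1+ over CD44+ NK1.1- cells 11 were higher and 9 lower, beside 32.5%, and in CD44+ NK1.1+ over CD44- NK1.1- cells 7 were higher and 11 lower, beside 32.2%. Of the 8 calls between genotypes in CD44+ NK1.1- cells, 1 (Eng) remained without Ezh2-KO replicate 1 and the same 1 without replicate 2.

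Of 8 further receptor genes, 4 were tested. Eng, which encodes the co-receptor endoglin, had 543.6 CPM in CD44- NK1.1-, 390 and 371.8 CPM in CD44+ NK1.1- and 269.9 CPM in CD44+ NK1.1+ Ezh2-KO libraries. WT cells had 343.6 CPM in CD44- NK1.1-, 105.5 and 140.1 CPM in CD44+ NK1.1- and 39.8 CPM in CD44+ NK1.1+ cells. In each subset Ezh2-KO lay above WT, and within each genotype the level was lowest in CD44+ NK1.1+ cells. The Ezh2-KO to WT difference of Eng in CD44+ NK1.1- cells was 1.63 on the log2 scale (SE 0.15, adjusted p = 0.00420), and CD44+ NK1.1+ cells differed from CD44- NK1.1- cells by -2.06 (SE 0.15, adjusted p = 0.000521). Acvrl1, the type I receptor that endothelial cells use with endoglin, went the other way between genotypes. It had 7.75 CPM in CD44- NK1.1-, 8.54 and 6.62 CPM in CD44+ NK1.1- and 3.57 CPM in CD44+ NK1.1+ Ezh2-KO libraries, against 17.6, 16.8 and 17.0, and 8.78 CPM in the WT libraries in the same order. Each Ezh2-KO value of Acvrl1 was below the WT values of its subset, and the difference over the 3 subsets was -1.20 (SE 0.11, adjusted p = 0.00115). Of 4 endothelial cell genes, Pecam1 made up nearly all reads (list sums of 62.7 to 162.9 CPM in Ezh2-KO and 55.7 to 162.2 CPM in WT libraries), Kdr never exceeded 1 count and Tek was at 0 counts in all 8 libraries. Bmpr1b, the other BMP type I receptor, was at 0 counts in all 8 libraries.

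**Figure D5:**
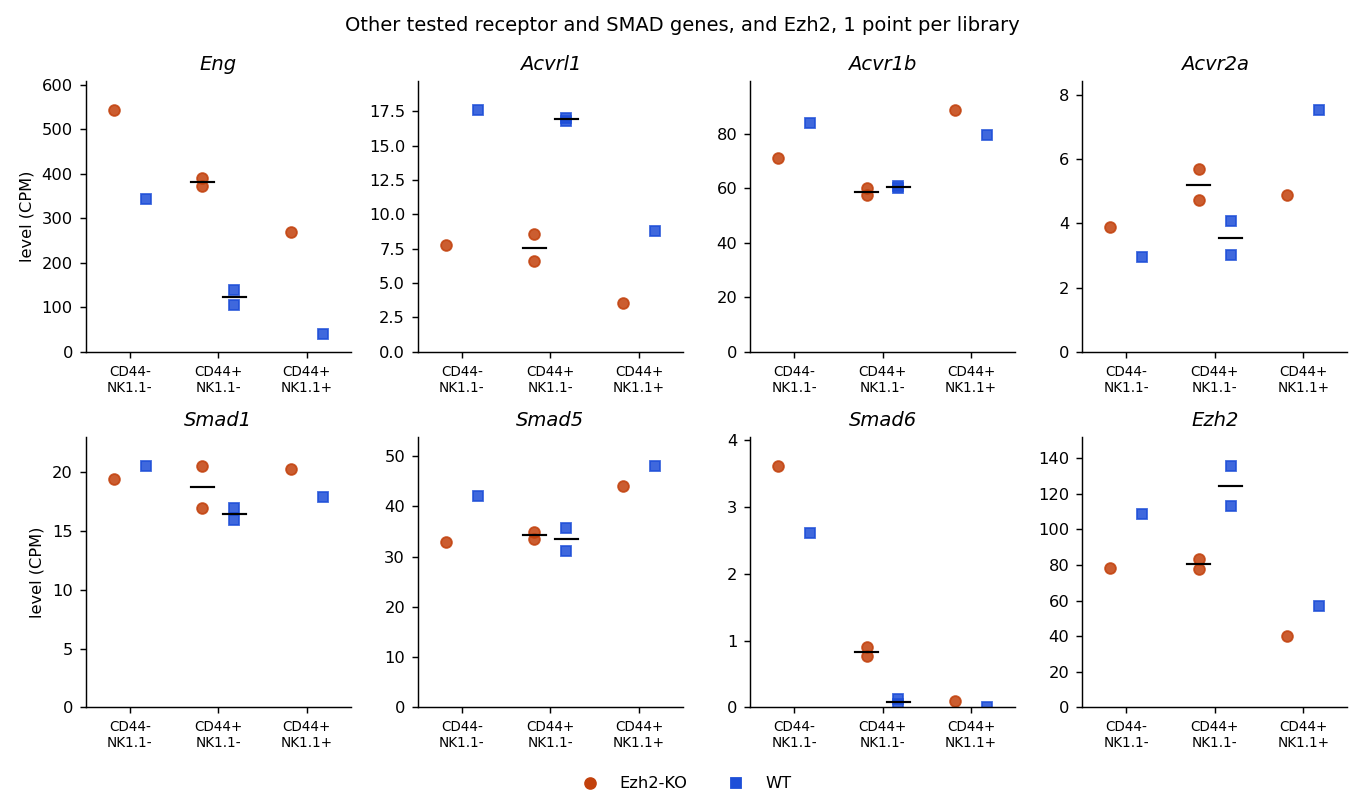
Level in CPM of the 4 other receptor and 3 other SMAD genes that passed the filter, and of Ezh2, by subset from CD44- NK1.1- to CD44+ NK1.1+, with Ezh2-KO libraries as circles to the left of WT libraries as squares (1 point per library, a black line for the mean of 2 replicates, vertical axes from 0). Eng is higher and Acvrl1 lower in Ezh2-KO in each subset, and Smad6 falls to 0.101 CPM in Ezh2-KO and 0 in WT CD44+ NK1.1+ libraries.

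Of the other SMADs, Smad1 and Smad5, which carry BMP signals, were not called between genotypes, and Smad9 had 2 counts in all. Smad6, the inhibitory SMAD of the BMP branch, was read at 79 counts in CD44- NK1.1-, 19 and 17 counts in CD44+ NK1.1- and 2 counts in CD44+ NK1.1+ Ezh2-KO libraries. The WT libraries held 58 counts in CD44- NK1.1-, 1 and 3 counts in CD44+ NK1.1- and 0 counts in CD44+ NK1.1+ cells. Smad6 was thus read mainly in CD44- NK1.1- cells, and in CD44+ NK1.1- cells more in Ezh2-KO than in WT libraries (edgeR adjusted p = 0.0303, lost with DESeq2 and without either Ezh2-KO replicate). CD44+ NK1.1- cells were below CD44- NK1.1- cells (adjusted p = 0.00697). Without the WT CD44- NK1.1- library only the Ezh2-KO difference remains, which was not called.

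Of 13 ligand genes 5 were tested, and Bmp2, Bmp4, Bmp6, Inhbb and Nodal had 0 counts in all 8 libraries. Bmp7, which encodes a BMP, was read in every library, at 86.4 CPM in CD44- NK1.1-, 75.4 and 67.4 CPM in CD44+ NK1.1- and 101.5 CPM in CD44+ NK1.1+ Ezh2-KO cells, and 98.9, 69.7 and 59.9, and 79.6 CPM in WT cells in the same order. It was not called between genotypes. Its difference of CD44+ NK1.1+ over CD44+ NK1.1- cells, 0.40 (SE 0.10, adjusted p = 0.0276), lost its call with scaling by total counts (0.27, adjusted p = 0.0796). The call was also lost without either CD44+ NK1.1+ library, which leaves the other genotype alone, or either Ezh2-KO CD44+ NK1.1- replicate (0.30 to 0.51). Tgfb1, which encodes a TGF-beta, had 203 to 238.2 CPM in Ezh2-KO and 224 to 280.3 CPM in WT libraries and was called in no comparison between genotypes. Gdf11, an activin-like ligand, was higher in CD44+ NK1.1+ than in CD44+ NK1.1- cells by 1.24 (SE 0.12, adjusted p = 0.00136), with 18.2 against 7.49 and 7.56 CPM in Ezh2-KO and 18.7 against 8.25 and 7.78 CPM in WT cells. Inha, the alpha subunit of inhibin, was higher in Ezh2-KO over the 3 subsets by 2.26 (SE 0.35, adjusted p = 0.00775), at 42, 34, 25 and 9 counts in Ezh2-KO and 14, 6, 4 and 1 counts in WT libraries. Furin, a protease that processes TGF-beta precursors, had 75.1 and 69.8 CPM in Ezh2-KO and 108.9 and 99.4 CPM in WT CD44+ NK1.1- cells (-0.52, SE 0.10, adjusted p = 0.0435), a call that was lost with scaling by total counts and without either Ezh2-KO replicate. Ltbp4, a latent TGF-beta binding protein, had 3.20 and 3.38 CPM in Ezh2-KO and 1.04 and 0.645 CPM in WT CD44+ NK1.1- cells (1.96, SE 0.29, adjusted p = 0.0195), lost without either Ezh2-KO replicate.

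The 17 regulators of receptors and SMADs, all tested, had a median Ezh2-KO to WT difference of -0.08 in CD44+ NK1.1- cells, against -0.01 in all genes. Over the 3 subsets, the SMAD corepressor genes Ski (-0.37, SE 0.06, adjusted p = 0.00930) and Skil (-0.71, SE 0.13, adjusted p = 0.0141) were lower in Ezh2-KO. Ski had 276.2 to 336.9 CPM in the 4 Ezh2-KO and 357.5 to 437.9 CPM in the 4 WT libraries. Skil had 81.8 to 107.3 CPM in Ezh2-KO and 126.9 to 188 CPM in WT libraries. Its call was lost when any one of 4 libraries was left out, both Ezh2-KO CD44+ NK1.1- replicates and both CD44+ NK1.1+ libraries. Zfyve9, which anchors Smad2 and Smad3 at TGF-beta receptors, was the regulator called higher, at 18, 10, 9 and 9 counts in Ezh2-KO and 1, 1, 0 and 2 counts in WT libraries (adjusted p = 0.0101). In the branch that does not use SMADs, Tab2, an adaptor of the kinase Map3k7, was higher in CD44+ NK1.1+ than in CD44+ NK1.1- cells (0.55, SE 0.09, adjusted p = 0.00830). The call was lost without Ezh2-KO CD44+ NK1.1- replicate 2. Without the Ezh2-KO CD44+ NK1.1+ library only the WT difference remains, which was not called.

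Among 11 genes known to respond to the pathway, Id1, Id4 and Msx2 were too low to test and 8 were tested. Itgae, the integrin gene that TGF-beta induces in T cells, had 510.1 CPM in Ezh2-KO and 896.4 CPM in WT CD44+ NK1.1+ cells, 271.1 against 455.8 CPM in CD44- NK1.1- cells, and over the 3 subsets a difference of -1.01 (SE 0.13, adjusted p = 0.00461). Id3, a target of BMP signals, was lower in CD44+ NK1.1+ than in CD44+ NK1.1- cells (log2 difference -2.03, SE 0.24, adjusted p = 0.00427), with 43.1 against 188 and 187.6 CPM in Ezh2-KO and 29.5 against 83.0 and 142.2 CPM in WT cells. Id2 moved the opposite way between these subsets, by 1.79 (SE 0.07, adjusted p = 0.000283), with 1217 against 312.8 and 309.2 CPM in Ezh2-KO and 1329 against 426.7 and 448.2 CPM in WT cells.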

How the data were processed

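The authors deposited raw read counts per gene, checked here to be whole numbers, for 8 libraries. Per the submitters' processing notes, base calls came from CASAVA, reads were aligned to mm10 with Subread 1.4.3-p1 and counted with featureCounts. Neither the annotation used for counting nor its strand setting is stated in the sources at hand. RNA was column-purified and libraries were made with a TruSeq kit, per the labels' protocols. The 8 single-library files equalled the table of the series. Symbols were matched through RefSeq for 25275 of 27179 identifiers.

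Counts were scaled by TMM to CPM, and to RPKM with the deposited gene length. The filterByExpr rule, given the 6 groups, left 13794 genes, which were tested in R 4.3.3 with edgeR 4.0.16 (glmQLFit with robust=TRUE, quasi-likelihood F test), Benjamini-Hochberg adjusted over all of them within a comparison and called at 0.05. One model gave each group a mean (2 residual degrees of freedom). The genotype effect over the 3 subsets came from added effects (4 residual degrees of freedom) and assumes a like effect in each. Groups with 1 library are assumed to vary like the replicated ones. Every p-value measures only the spread between these libraries. Each SE of an edgeR fit is the absolute log2 fold change divided by the square root of the F statistic. The alternatives used DESeq2 1.42.0, limma 3.58.1 (voom), other scalings, no filter, other models, single genotypes and each library left out. Without the only library of a group, a comparison of subsets that used this group was that of the other genotype alone. Fits were tested on simulated data.

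The members, the gene lists and the tests were chosen with earlier results of these data known. Other genes named are, per list and comparison, up to 4 called genes with the smallest p, genes at 0 to 3 counts in all libraries, and the 5 genes most like Bmpr1a. Tgfb1, Smad1 and Id1 were named beside that rule.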

Additional observations from a re-analysis of the deposited data

How the results depend on the processing

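Bmpr2 was the tested member called between genotypes in CD44+ NK1.1- cells, with the DESeq2 Wald test and limma-voom as with edgeR, and leaving out 1 library at a time gave 0 to 4 called members. Over the 3 subsets the count was 1, 2 with DESeq2 and 0 to 1 leaving out libraries. In CD44+ NK1.1- over CD44- NK1.1- cells it was 1, 0 to 5 leaving out libraries, and 0 with added effects, in WT libraries alone, in Ezh2-KO libraries alone and in the Ezh2-KO contrast from all libraries. In CD44+ NK1.1+ over CD44+ NK1.1- cells it was 5, 1 to 7 leaving out libraries, 0 in WT libraries alone, and 3 in the Ezh2-KO and 1 in the WT contrast from all libraries. In CD44+ NK1.1+ over CD44- NK1.1- cells it was 4, 1 to 8 leaving out libraries, 2 with DESeq2, 7 in Ezh2-KO and 1 in WT libraries alone, and 2 in the Ezh2-KO contrast from all libraries. Both differences of genotype effects had 0, and 0 to 3 leaving out libraries. The contrasts within a genotype from all libraries were added after seeing the data. Leaving out the only library of a group left a comparison of subsets that used it with 1 genotype. Such counts, here and below, are for that genotype alone and not for the mean of both.

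Over all genes, calls between genotypes in CD44+ NK1.1- cells numbered 682, but 3752 without WT replicate 1, 5792 without WT replicate 2, 101 without Ezh2-KO replicate 1 and 108 without replicate 2. They numbered 662 to 694 without any one library of the single-library groups. Without a WT replicate, the closer Ezh2-KO pair alone sets the spread. In the same way they numbered 69 to 4394 against 367 for CD44+ NK1.1- over CD44- NK1.1- cells, 1416 to 8585 against 4479 for CD44+ NK1.1+ over CD44+ NK1.1- cells, 2042 to 8661 against 4438 for CD44+ NK1.1+ over CD44- NK1.1- cells, and 489 to 2794 against 1561 over the 3 subsets (951 as the mean of the 3 effects). The differences of effects called 0 to 2634 genes against 0, and 1 to 3063 against 3 (28 each with DESeq2, 24 without a filter for the second). In single genotypes alone the 3 subset comparisons called 45, 214 and 724 genes in WT and 1980, 7718 and 7342 in Ezh2-KO, in the order just given.

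Scaling by total counts moved the median of all genes by -0.13 for CD44+ NK1.1+ over CD44+ NK1.1- cells and by -0.16 over CD44- NK1.1- cells. Higher calls then made up 31.8% in place of 50.5%, and 33.2% in place of 49.7%. Over the 3 subsets they made up 68.1% in place of 56.8%. For Bmpr1a, CD44+ NK1.1+ over CD44+ NK1.1- was 0.41 as the mean of both genotypes, -0.06 to 0.87 leaving out libraries (-0.06 without WT CD44+ NK1.1+ replicate 1), -0.08 in Ezh2-KO libraries alone and -0.06 in the Ezh2-KO contrast from all libraries. Ldlrad4, lower in CD44+ NK1.1+ cells, ran from -0.76 to 0.10 over CD44+ NK1.1- and from -0.98 to 0.04 over CD44- NK1.1- cells leaving out libraries, and was 0.10 over CD44+ NK1.1- and 0.04 over CD44- NK1.1- cells without Ezh2-KO CD44+ NK1.1+ replicate 1, 0.03 over CD44- NK1.1- cells without Ezh2-KO CD44- NK1.1- replicate 1, and 0.10 and 0.03 in WT libraries alone and in the WT contrast from all libraries. The values named here without the only library of a group are those of the other genotype alone. The cause of the other changes was not tested. No paired analysis was possible because the labels give no replicate numbers that the groups share.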
